A study of Mus musculus with 36 samples.

Results

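The genes described here encode the nuclear subunits of the 5 complexes of oxidative phosphorylation. They were chosen by symbol from the deposited table, as every row that began with Nduf followed by A, B, C, S or V and a digit, with Uqcr, with Cox4i, Cox5, Cox6, Cox7 or Cox8, or with Atp5, and the rows Sdha to Sdhd. This gave 81 of 18049 listed genes: 37 named for complex I, 4 for complex II, 8 for complex III, 15 for complex IV and 17 for complex V. Of the 81, 76 are subunit genes, and 5 are relatives that share the name (Ndufa4, Ndufa4l2, Cox7a2l, Atp5s and Atp5sl). Ndufa4 is now placed with complex IV, Cox7a2l is known for joining complexes into supercomplexes, and Atp5s and Atp5sl are also called Dmac2l and Dmac2. All 81 passed the filter on low counts in every comparison.

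The study took whole-kidney RNA of C57BL/6 mice on postnatal days 0, 3 and 12, here called P0, P3 and P12. At each age there were wild-type mice (WT), mice homozygous for the RC allele of Pkd1 (Pkd1-RC/RC), mice lacking Pkhd1 (Pkhd1-/-), and digenic mice homozygous for both. Each of the 12 groups held 3 libraries, 36 in all. Mutants were compared with WT of the same age and digenic mice also with each single mutant. Pkd1 and Pkhd1 are the genes of dominant and of recessive polycystic kidney disease. The sources used here do not say how the alleles were made.

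Complex I (NADH dehydrogenase) and complex II (succinate dehydrogenase, which is also an enzyme of the citric acid cycle) pass electrons to ubiquinone. Complex III hands them to cytochrome c and complex IV to oxygen. Complex V, ATP synthase, uses the proton gradient so made. The proximal tubule and the thick ascending limb of the kidney are known for their many mitochondria, which power salt and solute transport, and these segments mature after birth in mice. The subunits made from the mitochondrial genome were not analysed here.

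Total counts ran from 51411240 to 80789299 per library. Pkhd1 stood at no more than 32.8 CPM (counts scaled to library size) in the 18 libraries labelled Pkhd1-/- or digenic and at no less than 61.6 CPM in the other 18. The column header of digenic replicate 1 of P12 names P3 and that of Pkd1-RC/RC replicate 2 of P12 names Pkhd1, and the labels were used for both. In 3 libraries the sex read from Xist and Y-linked genes differed from the header. By the headers all digenic libraries of P3 were female and all Pkd1-RC/RC libraries of P3 and of P12 were male. Between digenic and Pkd1-RC/RC kidneys at P3, genotype and header sex cannot be told apart. The summed level of 7 adrenal cortex markers was above 40 CPM in 9 libraries, among them digenic replicates 2 and 3 of P12 (102 and 143 CPM). Libraries also differed in how level moved with gene length. The correlation, across genes, of a library's log2 deviation with gene length ran from -0.353 to 0.228, and the mean of the 76 subunits was lower in libraries where it was higher, as the plot of subunit mean against length correlation shows. Counts of calls are given without the adrenal libraries where they moved by over 1.5 times.

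Scaled by gene length (RPKM, the CPM divided by the gene length in kilobases that the deposited table gives), these were abundant transcripts of unequal level. That length need not be the length of the transcript present in kidney, and ranks by RPKM depend on it. In WT at P12 the highest was Cox8a of complex IV at 914 ± 143 (SD, n = 3), followed by the catalytic ATP synthase subunits Atp5a1 at 768 ± 47.6 and Atp5b at 659 ± 18.6 and by Cox6a1 at 649 ± 96.9. Cox8a and Atp5a1, and Atp5b and Cox6a1, did not differ beyond their spread. In complex I the subunit genes ran from Ndufb9 at 339 ± 33.9 down to Ndufb2 at 14.3 ± 2.17. Ndufs1, the iron-sulfur subunit at the tip of the NADH arm, was among the lower ones by RPKM at 28.2 ± 1.36. The deposited lengths of Ndufb2 and Ndufs1 are 5628 and 8086 bases. Before scaling by length, Ndufb2 stood at 80.8 ± 12.2 and Ndufs1 at 228 ± 11.0 CPM. In complex II, the anchor Sdhd stood at 263 ± 19.8 and the flavoprotein Sdha at 164 ± 6.10. In complex III the 8 genes ran from Uqcrq at 81.3 ± 17.9 to Uqcr10 at 309.9 ± 53.9. The summed RPKM of the subunit genes was 3647 ± 497 for complex I, 654 ± 51.7 for II, 1567 ± 232 for III, 3864 ± 599.9 for IV and 3524 ± 398 for V.

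Isoforms of complex IV that are known from other tissues were low. In WT at P12, Cox4i1 stood at 456 ± 71.2 RPKM and its counterpart Cox4i2, known from lung, at 4.85 ± 0.707. Cox6b1 stood at 587 ± 99.8 RPKM and Cox6b2, known from testis, at 14 ± 1.97. Cox7a2 stood at 271 ± 46.4 RPKM and Cox7a1, the heart and muscle form, at 27.9 ± 7.15. Cox8a stood at 914 ± 143 RPKM and Cox8b, the form of muscle and brown fat, at 7.85 ± 5.14. Of the 3 genes that encode the same mature subunit c of ATP synthase, Atp5g3 was highest at 381 ± 55.2 RPKM. Atp5g1 (44.5 ± 8.10) and Atp5g2 (39.8 ± 5.54) did not differ in RPKM beyond their spread. Their deposited lengths are 4912 and 1675 bases. Before scaling by length, Atp5g1 stood at 218 ± 39.8 and Atp5g2 at 66.6 ± 9.28 CPM.

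In WT kidneys the subunit genes fell from P0 to P3 and rose from P3 to P12. From P0 to P3, 33 of the 81 fell and 0 rose, where 11.9% of all 18049 genes fell and 24.7% changed either way, and the median change was -0.33 on the log2 scale against 0.01 for all genes. The 33 were 13 of the 35 subunit genes of complex I, 2 of 4 of complex II, 4 of 8 of complex III, 4 of 14 of complex IV and 9 of 15 of complex V, with Cox7a2l. The Rieske iron-sulfur protein Uqcrfs1 had levels of 332, 318 and 357 CPM at P0 and of 211, 226 and 205 CPM at P3. These do not overlap, and Uqcrfs1 fell by 36.2% (log2 change -0.65 ± 0.107 SE, adjusted p = 1.66e-04 by edgeR's quasi-likelihood test). Atp5a1 fell by 0.53, Sdhd by 0.52 and Ndufb8, of the membrane arm of complex I, by 0.61 on the log2 scale. Sdha and Ndufs1 did not pass: Ndufs1 stood at 149 ± 8.94 and 144 ± 26.0 CPM at the 2 ages. The number that fell was 12 when only the 9 WT libraries were fitted, 15 without the libraries with adrenal transcripts, and 11 without WT P3 replicate 3 against 53 without WT P3 replicate 2.

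From P3 to P12, 51 of the 81 rose and 0 fell, where 18.6% of all genes rose, with a median log2 change of 0.42 against 0.03 for all genes. All 4 genes of complex II rose, as did 22 of 35 of complex I, 5 of 8 of complex III, 10 of 14 of complex IV and 8 of 15 of complex V, with Ndufa4 and Atp5sl. Sdha had levels of 414, 388 and 421 CPM at P3 and of 609, 656 and 639.9 CPM at P12, a log2 change of 0.64 ± 0.0898 (SE; adjusted p = 2.63e-06, edgeR). Ndufs1 rose from 159, 114 and 159 CPM to 240.1, 224 and 219 CPM, a log2 change of 0.66 ± 0.125 (adjusted p = 1.46e-04, edgeR). In both genes every P12 library lay above every P3 library. Uqcrfs1 rose by 0.54, Atp5b by 0.51 and Cox5a, a nuclear subunit of complex IV, by 0.55. Among the called genes of complex IV and V the largest rises were those of Cox7a1 (1.01 log2, from 5.03 CPM at P3 to 10.2 CPM) and of Atp5l (0.58 log2), a membrane subunit of ATP synthase. Cox7a1 was not called without WT P3 replicate 1 or 3 or WT P12 replicate 2, and Atp5l not without the last of these. Cox8b had a larger difference that did not pass (3.08 ± 1.30, adjusted p = 0.0672, edgeR). The count of rises was 28, with 1 fall, when only the 9 WT libraries were fitted, and ran from 23 without WT P3 replicate 1 to 70 without WT P3 replicate 2.

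Set against P0, WT kidneys at P12 had 8 genes that rose and 3 that fell, where 26.2% of all genes rose and 23.6% fell (49.8% together). Ndufs1 (0.61 ± 0.125 SE), Ndufb3 (0.54 ± 0.125), Sdha (0.53 ± 0.0896), Ndufs7 (0.40 ± 0.138), Ndufa1 (0.43 ± 0.162), Atp5s (0.52 ± 0.142) and Cox6b2 (0.49 ± 0.193) rose on the log2 scale, as did Cox8b. Ndufs7 and Ndufa1 were not called without WT P0 replicate 1 or 3 or WT P12 replicate 2, and Cox6b2 not without any of these or WT P12 replicate 3. These 3 were also not called with only the 9 WT libraries, nor, with Atp5g2, without the adrenal libraries. The genes that fell were Cox7a2l, from 369 ± 48.2 to 215 ± 14.4 CPM (-0.78 ± 0.128 SE, adjusted p = 1.16e-05, edgeR), Cox4i2, from 8.45 ± 0.944 to 3.82 ± 0.557 CPM (-1.14 ± 0.298), and Atp5g2, from 89.8 ± 8.52 to 66.6 ± 9.28 CPM (-0.43 ± 0.134). With the length trend removed 30 rose and 4 fell. The median over the 81 was 0.08. Thus Cox7a2l fell while the genes it is named after, Cox7a1 and Cox7a2, were not called, and Atp5g2 fell while Atp5g1 and Atp5g3 were not called; whether these members differ from each other was not tested.

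**Figure D1:**
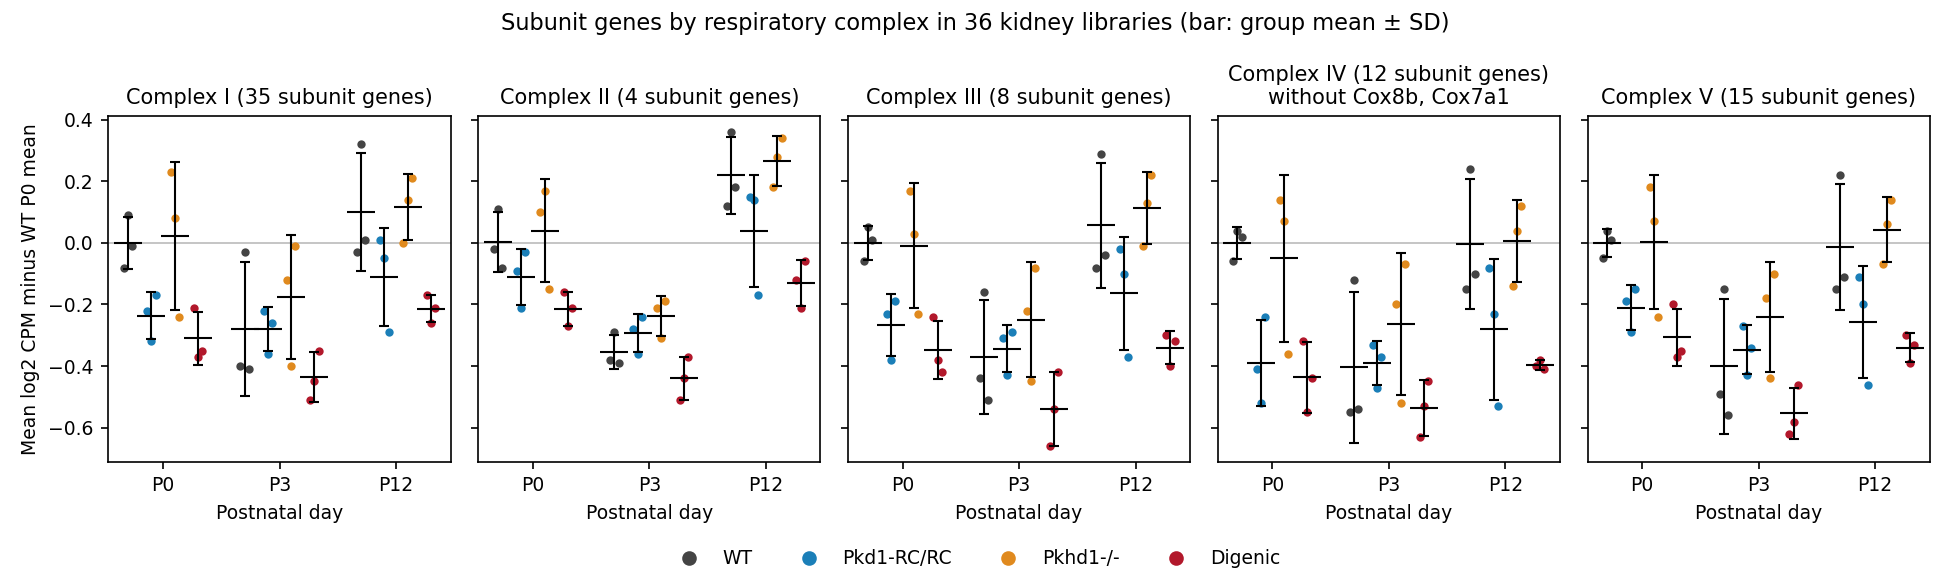
Each point is 1 library and shows the mean log2 CPM of the subunit genes of a complex minus the WT P0 mean, by postnatal day and genotype, with bars for the group mean ± SD (n = 3). In WT the complex I mean is -0.28 at P3 and 0.10 at P12, and in digenic kidneys at P12 it is -0.21 with an SD of 0.0467. Cox8b and Cox7a1 are left out of complex IV for the reason given in the text.

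Cox8b and Cox7a1 moved with a brown fat marker. At P12 the CPM of Cox8b was 0.893, 3.02 and 4.60 in WT, 16, 5.89 and 0.11 in Pkd1-RC/RC, 0.806, 0.738 and 10 in Pkhd1-/- and 1.0, 1.97 and 0.0654 in digenic libraries. The Pkd1-RC/RC libraries, and the Pkhd1-/- libraries, lay further apart than the genotype means, which ran from 1.01 to 7.34 CPM. Ucp1, the uncoupling protein that defines brown fat, was at 82.9 CPM in Pkd1-RC/RC replicate 1 and at 42.2 CPM in Pkhd1-/- replicate 3, the same 2 libraries in which Cox8b was highest. Over the 12 libraries of P12, Pearson's r with Ucp1 on the log2 scale was 0.958 for Cox8b and 0.920 for Cox7a1, against 0.775 for Cox6b2, 0.553 for Cox4i2 and 0.537 for Ndufa4l2, as a description of libraries that share 4 genotypes. Cox8b rose from P0 to P12 in WT (0.0912 ± 0.0768 to 2.84 ± 1.86 CPM), and 4 of the 5 measured brown fat markers rose, Ucp1, Cidea, Dio2 and Cox8b itself, which is on that list. The part of fat tissue in these 2 genes was not tested, and they were left out of the plotted complex IV mean after their values were seen. With them that mean in WT at P12 was 0.36 above WT P0, and without them it was -0.00. They stay in the means of the 76 subunits and in the medians.

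**Figure D2:**
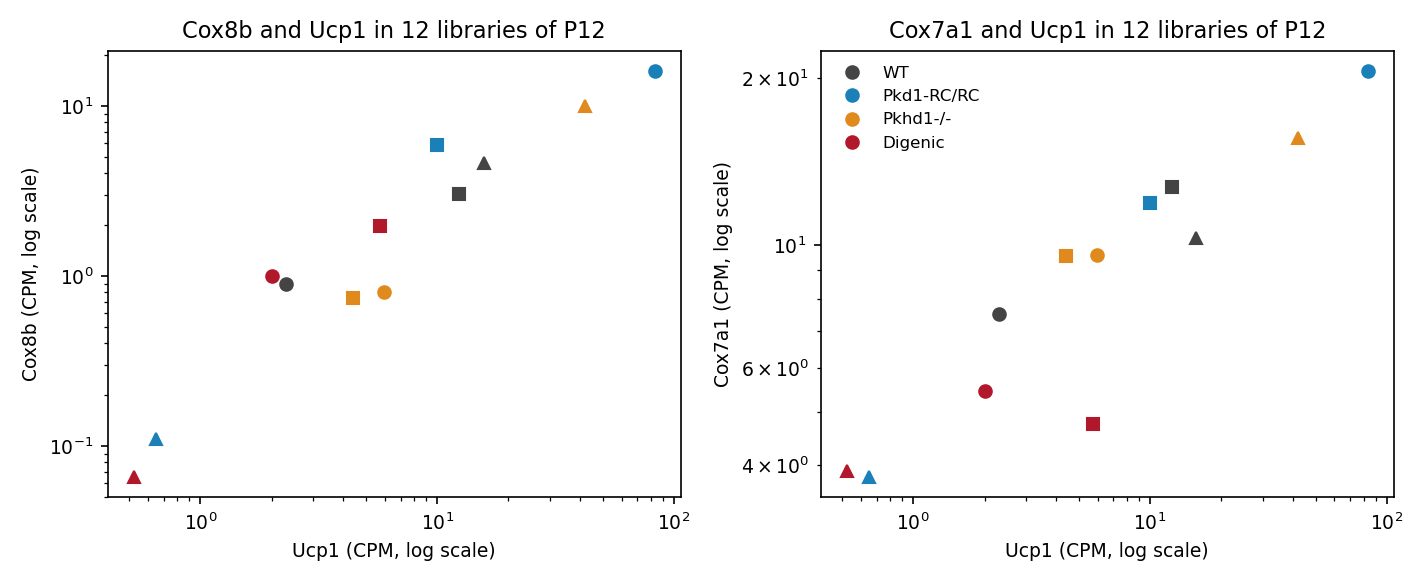
Levels of Cox8b (left) and Cox7a1 (right) against Ucp1 in the 12 libraries of P12, in CPM on log axes, coloured by genotype, with circles, squares and triangles for replicates 1, 2 and 3. Both genes are highest in the library with the highest Ucp1, 82.9 CPM.

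At P0 no gene of the 81 was called in any mutant. Counts at an unadjusted p under 0.05 are given here and below without the share of all genes at that level. The shares of genes called are at an adjusted p under 0.05, so these counts cannot be set against them. In Pkd1-RC/RC against WT 78 of 81 had lower means, with a median log2 difference of -0.26 against 0.004 for all genes. Of the 81, 0 passed, where 0.0166% of all genes were called (28 of the 81 had an unadjusted p under 0.05). The share of all genes with lower means is not given here or below. Members share each library's scaling and length trend, so counts of lower means are not counts of separate results. The members with the smallest p were Ndufb11 (-0.50 log2, adjusted p = 0.369), Cox8a (-0.49, adjusted p = 0.395) and Ndufb10 (-0.38, adjusted p = 0.422), all by edgeR. Pkhd1-/- kidneys had a median of 0.01 and 0 calls, where 0.0111% of all genes were called (0 at an unadjusted p under 0.05). In digenic kidneys all 81 had lower means than WT, with a median of -0.32 against 0.003 for all genes. Of these, 0 passed in edgeR's test, where 0.671% of all genes were called (43 at an unadjusted p under 0.05). In that comparison DESeq2 called 7 lower and a fit of all 36 libraries called 17 lower. Ndufa4l2, a relative of Ndufa4 known to respond to hypoxia, stood at 14.6, 14.7 and 14.6 CPM in digenic and at 32.8, 34.0 and 27.5 CPM in WT kidneys, with a log2 difference of -1.10 ± 0.280 (SE; adjusted p = 0.0913, edgeR). Ndufb10 stood at 104, 105 and 89.2 CPM in digenic and at 133, 149 and 134 CPM in WT kidneys (-0.48 ± 0.122, adjusted p = 0.0912, edgeR). In neither gene did the 2 groups overlap. Both genes passed with DESeq2 (adjusted p = 0.00738 for Ndufa4l2 and 0.0169 for Ndufb10) and when all 36 libraries entered 1 fit.

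The P0 medians moved with the length trend. It lay between -0.300 and -0.111 in WT and between -0.0991 and 0.114 in digenic libraries at P0, and with the trend removed the digenic median was -0.22 and that of Pkd1-RC/RC -0.14, with 0 calls in either. Against Pkd1-RC/RC, the digenic median was -0.06 with 0 calls, where 0.0388% of genes were called. Against Pkhd1-/- it was -0.34 with 0 calls, where 0.244% were called, DESeq2 called 6, and 15 were called without Pkhd1-/- P0 replicate 3. For the interaction, which is the digenic difference minus the sum of the single-mutant differences, 0 were called, where 0.00554% of genes were.

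At P3 again 0 of the 81 were called in any of the 6 comparisons. Median log2 differences from WT were 0.00 in Pkd1-RC/RC, 0.12 in Pkhd1-/- and -0.18 in digenic kidneys, where 0.0443%, 0.0166% and 2.70% of all genes were called. The numbers with an unadjusted p under 0.05 were 1, 2 and 10, with no share of all genes at that level to set them against. Digenic kidneys had a median of -0.17 against Pkd1-RC/RC, where header sex differed along with genotype and 0.460% of genes were called. Against Pkhd1-/- the median was -0.30, where 3.49% of genes were called. In that comparison with Pkhd1-/- DESeq2 called 8 lower, and 45 had an unadjusted p under 0.05 in edgeR. The interaction had a median of -0.29 with 0 calls among the 81 and among all genes. Ndufa4l2 stood at 16.7, 17.1 and 20.7 CPM in digenic and at 20.7, 32.4 and 22.8 CPM in WT kidneys (-0.49 ± 0.185, adjusted p = 0.208, edgeR). Before rounding the groups did not overlap.

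At P12 genes of every complex were lower in digenic kidneys. Of the 81 genes 37 fell against WT and 0 rose, where 11.0% of all 18002 tested genes fell and 12.0% rose, and the median log2 difference was -0.34 against -0.01 for all genes. The falls took in 15 of 35 subunit genes of complex I, 3 of 4 of complex II, 7 of 8 of complex III, 4 of 14 of complex IV and 5 of 15 of complex V, with Ndufa4, Ndufa4l2 and Atp5sl. All 76 subunit genes had negative log2 differences, from -1.51 for Cox8b, which did not pass, to -0.00 for Atp5g2. The medians by complex were -0.32, -0.33, -0.40, -0.36 and -0.31 from I to V, and whether the complexes differ was not tested. That of complex IV includes Cox8b and Cox7a1.

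In complex I, Ndufs1 stood at 163, 139 and 157 CPM in digenic and at 240.1, 224 and 219 CPM in WT kidneys. The groups lay far apart, and Ndufs1 fell by 33.0% (-0.58 ± 0.0874 SE, adjusted p = 6.86e-04, edgeR). Ndufb10, a subunit of the membrane arm, stood at 104, 108 and 111 CPM in digenic and at 143, 192 and 156 CPM in WT kidneys, and fell by 34.3% (-0.61 ± 0.109, adjusted p = 0.00191, edgeR). Ndufb10 lies on chromosome 17, 126 kb from Pkd1, and Ndufs1 on chromosome 1, 42.5 Mb from Pkhd1, in mm10. Ndufb3 fell by 0.48 and Ndufc1 by 0.61 on the log2 scale. Among the core subunits, Ndufs7 (-0.37 ± 0.102), Ndufs8 (-0.40 ± 0.120) and Ndufv2 (-0.36 ± 0.105) fell, and Ndufv1, which binds NADH, had a difference of -0.15 ± 0.0987 (adjusted p = 0.307, edgeR). In this complex Ndufa6 was nearest to no difference, at 119 ± 5.10 and 126 ± 17.7 CPM. Ndufa4l2 fell from 22.3 ± 3.01 to 12.6 ± 5.37 CPM (-0.82 ± 0.220), but not without digenic replicate 1 or 3 or WT replicate 2 or 3.

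In complex II the iron-sulfur subunit Sdhb stood at 206, 190.3 and 227 CPM in digenic and at 268, 332 and 284 CPM in WT kidneys, and fell by 29.6% (-0.51 ± 0.136, adjusted p = 0.0179, edgeR); it was not called without WT replicate 2 or digenic replicate 2. Sdha fell by 0.29 and the anchor Sdhc by 0.38 on the log2 scale, and Sdhd had a difference of -0.24 ± 0.103 (adjusted p = 0.111, edgeR). In complex III the small subunit Uqcr11 stood at 111, 111 and 112 CPM in digenic and at 151, 198 and 145 CPM in WT kidneys, with a log2 difference of -0.57 ± 0.144 (adjusted p = 0.0142, edgeR), which was not called without WT replicate 2. The core protein Uqcrc2 fell by 0.37 and Uqcrfs1 by 0.34. The other core protein, Uqcrc1, had a difference of -0.30 ± 0.103 (adjusted p = 0.0521, edgeR).

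In complex IV, Cox5a (-0.38 ± 0.112), Cox6c (-0.43 ± 0.127), Cox7b (-0.41 ± 0.133) and the low isoform Cox6b2 fell. Cox6b2 stood at 9.19, 10.8 and 8.41 CPM in digenic and at 13.1, 17.5 and 15.8 CPM in WT kidneys (-0.71 ± 0.177, adjusted p = 0.0123, edgeR). Cox4i1, with 596 ± 34.8 and 706 ± 110.3 CPM, and Cox5b, with 193 ± 7.74 and 245 ± 42.3 CPM, did not pass. Cox7a2l was the only one of the 81 with a positive log2 difference, 234 ± 11.8 against 215 ± 14.4 CPM (0.12 ± 0.0870, adjusted p = 0.348, edgeR). In complex V the stalk subunit Atp5f1 stood at 334, 287 and 305 CPM in digenic and at 411, 477 and 402 CPM in WT kidneys, and fell by 28.4% (-0.48 ± 0.105, adjusted p = 0.00587, edgeR). Atp5j (-0.46 ± 0.106), Atp5k (-0.64 ± 0.187), Atp5g1 (-0.49 ± 0.136) and Atp5g3 (-0.34 ± 0.109) fell too. The catalytic pair Atp5a1 (-0.19 ± 0.10) and Atp5b (-0.23 ± 0.101) did not pass, and Atp5g2 had a difference of -0.00 ± 0.102. Atp5k was not called without WT replicate 1 or 2 or digenic replicate 2 or 3.

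**Figure D3:**
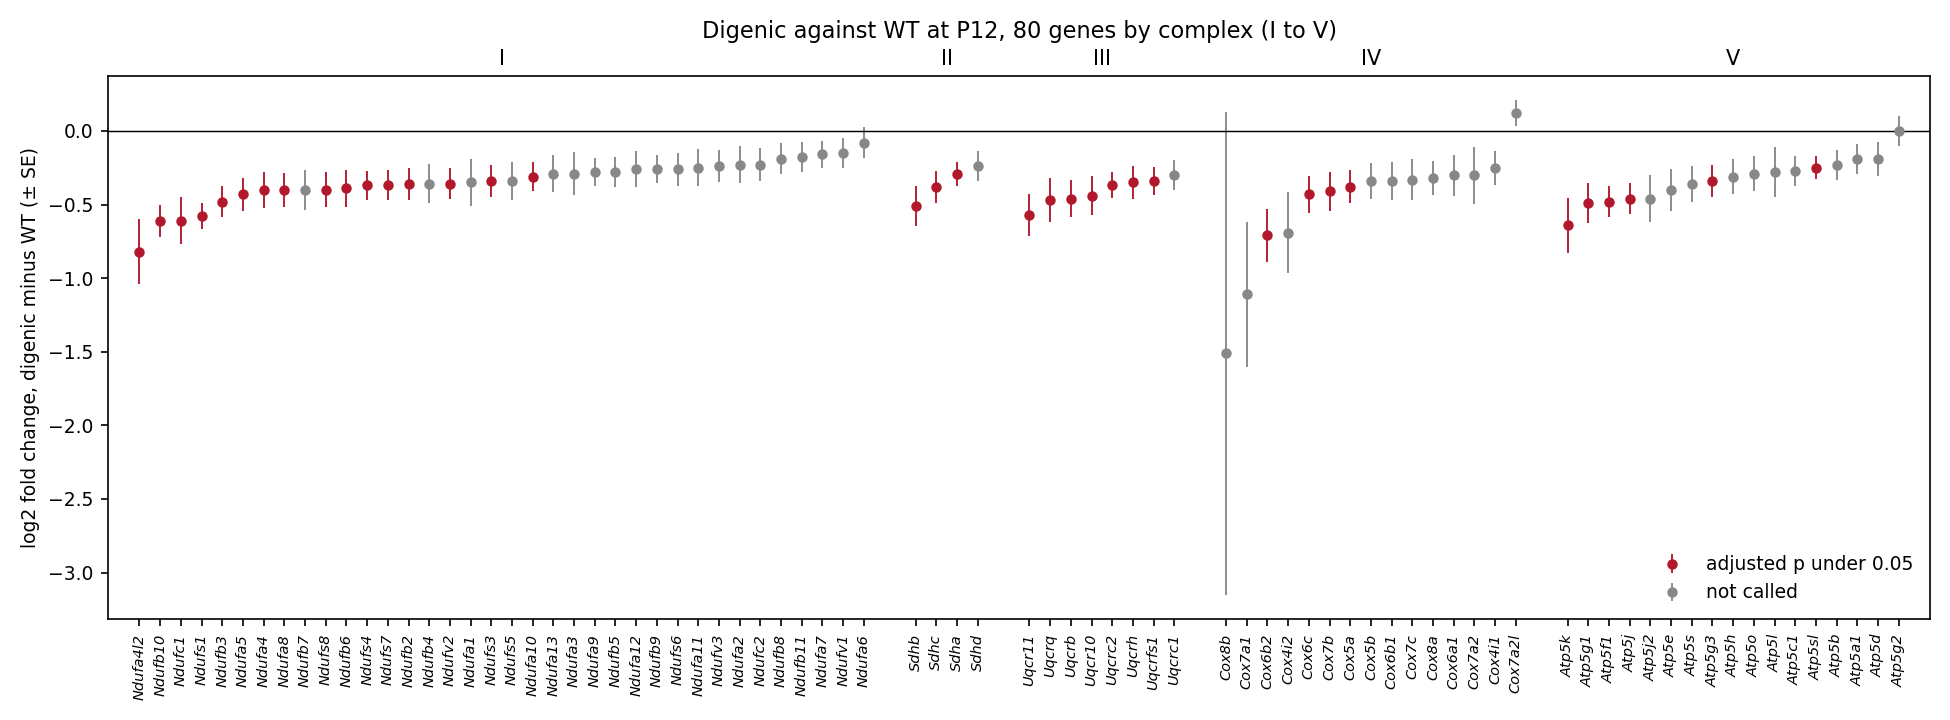
Log2 fold change of digenic against WT kidneys at P12 (± SE) for 80 of the 81 genes, grouped by complex and ordered within it, with called genes in red. All but Cox7a2l (0.12) lie at or below 0, and the 36 called genes drawn are on the lower side.

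The number called at P12 depended on which libraries were used. It was 7 without WT replicate 2, the WT library with the highest subunit mean (0.35 log2 above the WT P0 mean, against -0.03 and 0.05 in the others), and 40 without WT replicate 1. Without the libraries with adrenal transcripts, digenic replicate 1 is the lone digenic library of P12, here and below. It is the library whose column header names P3, and it was assumed to vary like the other groups. The median of the 81 was then -0.28, with -0.47 for Ndufs1 and -0.63 for Ndufb10. With the length trend removed, 49 fell and the median was -0.32.

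Several cell types and other gene groups differed between the same libraries. Of all tested genes 11.0% were called lower and 12.0% higher in digenic against WT at P12. The summed level of 18 proximal tubule markers ran from 14632 to 19045 CPM in WT and from 8938 to 9385 CPM in digenic kidneys at P12, with 10 of 18 called lower and a median of -0.80. Of the loop of Henle markers 6 of 6 were lower (median -0.68), of the principal cell markers 6 of 6 were higher (median 1.10), and of the macrophage markers 7 of 7 measured were higher (median 2.55). Of the adrenal cortex markers 1 of 7 was called higher, with a median of 5.05, and the cell cycle list had 0 of 8 called. In bulk kidney RNA, fewer cells of a type and less RNA of these genes per cell cannot be told apart. The part of cell makeup in the subunit differences was not tested.

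The other genes of the pathway were read from lists. Their counts stand next to 11.0% of all genes that fell and 12.0% that rose in digenic against WT at P12. Of 6 other nuclear genes of the chain, 4 fell in digenic kidneys at P12 and 0 rose: Cyc1 (cytochrome c1, -0.39 ± 0.111), Cycs (cytochrome c, -0.47 ± 0.159), Ndufab1 (-0.48 ± 0.121) and Usmg5 (-0.41 ± 0.120). Of the assembly factors, 5 of 15 for complex I, 0 of 2 for II, 1 of 6 for III, 6 of 21 for IV and 1 of 3 for V fell, and 0 rose. Cox20, an assembly factor of complex IV, had a log2 change of -0.70 ± 0.134. Of the citric acid cycle enzymes 13 of 18 fell and 0 rose, with Fh1 (fumarase) at -0.44 ± 0.107 and Cs (citrate synthase), not called, at -0.04 ± 0.0998. Of the genes for the mitochondrial ribosome 12 of 74 fell and 0 rose. Of those for the cytosolic ribosome 52 of 78 rose and 0 fell, with a median of 0.36.

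Among 17 regulators of respiratory genes, 3 fell and 1 rose in digenic kidneys at P12, a share near the 23.0% of all genes called there. The nuclear receptors Esrra (-0.47 ± 0.0915) and Esrrb (-0.43 ± 0.0963) and the hypoxia factor Epas1 (-0.70 ± 0.111) fell, and the coactivator Pprc1 rose by 0.26 ± 0.0768. Ppargc1a, the best known coactivator of mitochondrial genes, had a difference of -0.00 ± 0.103 (adjusted p = 0.980, edgeR). In WT from P3 to P12, Esrra (0.71 ± 0.155), Esrrb (1.18 ± 0.238), Epas1 (1.10 ± 0.136) and Ppargc1a (0.77 ± 0.203) rose, and Pprc1 had a change of -0.50 ± 0.106. Of all genes 18.6% rose and 17.0% fell there. Only the regulators already named are given, without a count for the 17, so they do not stand for the list.

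The upstream sequence of the subunit genes was searched for 3 motifs of factors known to bind respiratory gene promoters: CCGGAAG of the ETS factors such as GABPA, the palindrome of NRF1 (its 10 letters stand in capitals in Atp5k), and AAGATGGCG of YY1. Both strands were searched in RefSeq windows (GRCm38.p6) from 250 bases before to 50 after the start, and the motifs do not overlap each other in the stretches shown. Of the 81 genes 68 had a window, and 13 had none, among them Ndufs1, Ndufa4l2, Sdhc, Uqcrc2, Cox4i1 and Atp5a1. The ETS motif was found for 16 of the 68 (23.5%). Its share was 9.93% of all 27025 genes with a window and 17.3% of the 11894 listed genes that matched. NRF1 was found for 5 (7.35%) against 1.07% and 2.05% of these, and YY1 for 8 (11.8%) against 1.64% and 3%. Any of the 3 was found for 26 (38.2%) against 12.1% of all genes and 21.2% of the 11894 listed genes that matched. Of the 37 genes called lower in digenic kidneys at P12, 8 had no window. A match was found for 12 of the other 29 (41.4%) and 14 of 39 not called (35.9%), and the median log2 difference was -0.34 with and -0.34 without a match, given with no test. As examples of the motifs, the 100 bases before the start are given for 5 genes that fell (Ndufs3, Uqcr11, Uqcrh, Atp5j and Atp5k) and for Atp5g2, which had no difference and holds the same NRF1 palindrome as Atp5k. They were chosen for holding a motif and for their difference. Atp5j has windows at 2 starts, and the one shown was picked by its number of motifs. Capitals mark the motif on either strand. All 6 genes lie on the minus strand, and the sequences read 5′ to 3′ on it.
Ndufs3 (chr2:90904722-90904821, ETS): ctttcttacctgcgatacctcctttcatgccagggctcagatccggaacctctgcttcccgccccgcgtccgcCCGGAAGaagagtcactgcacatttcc
Uqcr11 (chr10:80406822-80406921, ETS): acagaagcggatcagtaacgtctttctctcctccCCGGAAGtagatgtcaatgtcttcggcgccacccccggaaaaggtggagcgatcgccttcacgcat
Uqcrh (chr4:116075071-116075170, ETS on the opposite strand): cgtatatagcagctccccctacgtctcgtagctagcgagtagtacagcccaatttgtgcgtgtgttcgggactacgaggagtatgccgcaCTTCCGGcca
Atp5j (chr16:84834977-84835076, YY1 then ETS): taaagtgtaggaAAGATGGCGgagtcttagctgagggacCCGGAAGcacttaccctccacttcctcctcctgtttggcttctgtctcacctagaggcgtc
Atp5k (chr5:108434400-108434499, NRF1): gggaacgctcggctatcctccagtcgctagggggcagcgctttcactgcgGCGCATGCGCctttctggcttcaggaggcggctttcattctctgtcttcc
Atp5g2 (chr15:102671048-102671147, NRF1): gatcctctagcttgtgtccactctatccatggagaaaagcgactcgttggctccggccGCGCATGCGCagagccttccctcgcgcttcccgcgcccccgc

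The single mutants at P12 gave 0 calls among the 81. In Pkd1-RC/RC 77 of 81 means were lower than in WT, with a median of -0.21 against 0.001 for all genes, where 0.267% of all genes were called. At an unadjusted p under 0.05 there were 12, with no share of all genes at that level to set them against. Ndufb10 stood at 139, 133 and 115 CPM in Pkd1-RC/RC, just below the WT libraries (-0.34 ± 0.108, adjusted p = 0.456, edgeR). In Pkhd1-/- kidneys the median was 0.03, with 1 gene at an unadjusted p under 0.05, where 0.0333% of all genes were called. That gene was Ndufs1, at 255, 278 and 264 CPM above every WT library (0.22 ± 0.0870, adjusted p = 0.957, edgeR).

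At P12 more members were called between digenic and Pkhd1-/- kidneys than between digenic and Pkd1-RC/RC kidneys. The comparisons share the digenic libraries, and the difference between them was not tested. Against Pkhd1-/-, 46 of the 81 fell and 1 rose, where 12.6% of all genes fell and 15.5% rose, with a median of -0.37. All 4 genes of complex II and all 8 of complex III fell. Ndufs1 had a log2 difference of -0.80 ± 0.0876 (adjusted p = 6.53e-05, edgeR), Sdhb of -0.55 ± 0.136 and Uqcrq of -0.54 ± 0.147, and Cox7a2l rose from 197 ± 2.70 to 234 ± 11.8 CPM (0.25 ± 0.0871, adjusted p = 0.0494, edgeR). The count was 17 without Pkhd1-/- replicate 3 and 4 without the libraries with adrenal transcripts, and Cox7a2l was not called in 5 of 6 fits that left out 1 library. Against Pkd1-RC/RC, 2 fell and 0 rose, where 9.24% of all genes fell and 10.3% rose (19.5% together), with a median of -0.13. They were Ndufs1 (-0.44 ± 0.0873, adjusted p = 0.00509, edgeR) and Atp5s (-0.45 ± 0.124, adjusted p = 0.0244, edgeR). With the length trend removed 9 were called, DESeq2 called 6, and without Pkd1-RC/RC replicate 3 there were 9 against 1 without Pkd1-RC/RC replicate 2 or digenic replicate 3. Leaving out digenic replicate 3, or replicate 2 or 3 of Pkd1-RC/RC, ended the call of Atp5s. Without the adrenal libraries neither gene was called, and Ndufs1 had a difference of -0.33 (adjusted p = 0.128, edgeR).

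Ndufs1 was also the single member called for the interaction at P12, where 3.19% of all genes were called lower and 5.38% higher (8.57% together). Its means were 228 ± 11.0 CPM in WT, 206 ± 20.1 in Pkd1-RC/RC, 265 ± 11.6 in Pkhd1-/- and 153 ± 12.3 in digenic kidneys, so that the digenic level was below what the sum of the single log2 differences gives, by -0.66 ± 0.123 (SE; adjusted p = 0.0105, edgeR). It kept an adjusted p under 0.05 in each of the 12 fits that left out 1 library, and had -0.56 with an adjusted p of 0.0657 without the libraries with adrenal transcripts. In digenic kidneys Ndufs1 stood at 138 ± 13.6, 147 ± 2.67 and 153 ± 12.3 CPM at P0, P3 and P12, next to 149 ± 8.94, 144 ± 26.0 and 228 ± 11.0 CPM in WT. The change of its digenic difference from P0 to P12 was -0.46 ± 0.177 and did not pass (adjusted p = 0.0972, edgeR).

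**Figure D4:**
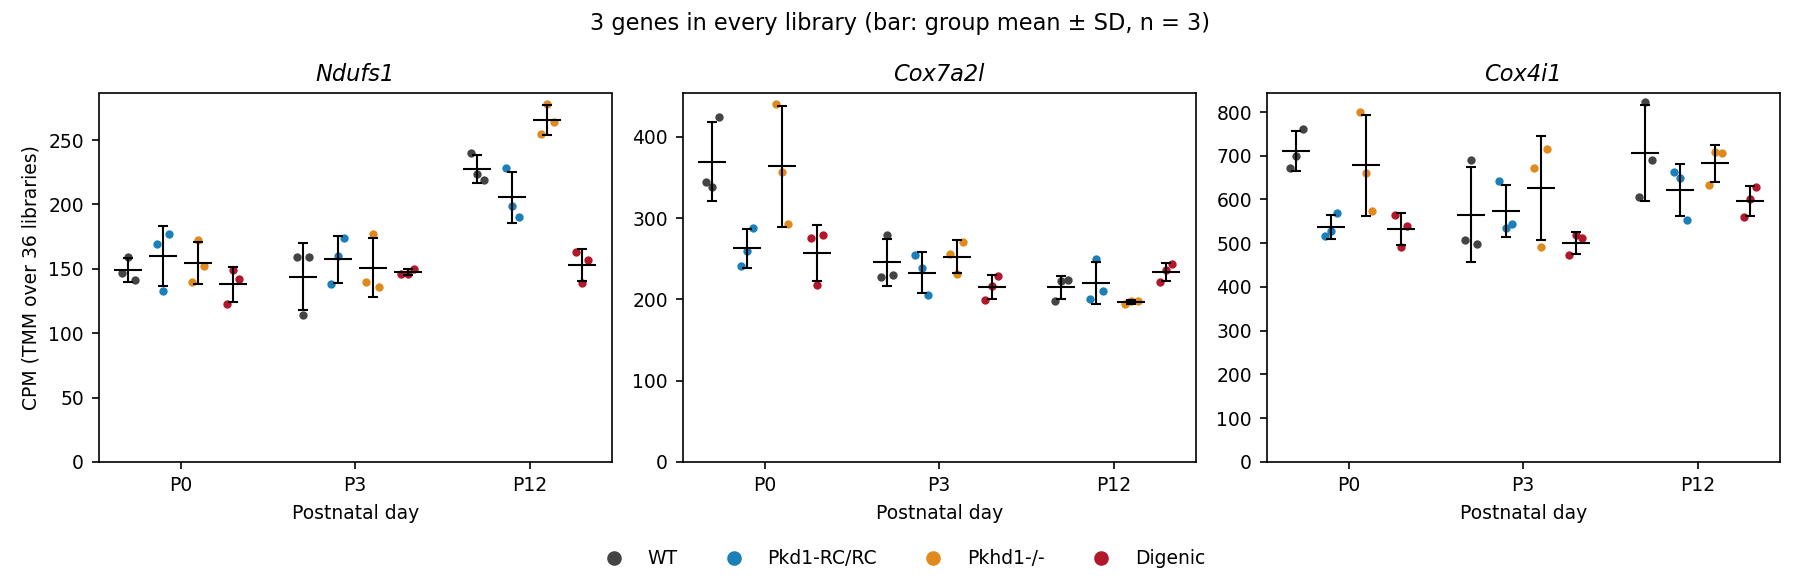
Levels in CPM of Ndufs1, Cox7a2l and Cox4i1 in all 36 libraries by postnatal day and genotype, with bars for the group mean ± SD (n = 3). At P12 the digenic Ndufs1 libraries (139 to 163 CPM) lie below all others of that age, and at P0 Cox7a2l lies at 218 to 288 CPM in Pkd1-RC/RC and digenic kidneys and at 338 to 425 CPM in WT.

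For changes of the mutant difference from P0 to P12, 1 of the 81 passed in digenic kidneys, where 5.22% of all genes were called higher and 3.57% lower (8.79% together), and 0 in Pkd1-RC/RC and Pkhd1-/-, where 0.00554% and 0% of all genes were called. At an unadjusted p under 0.05 the counts were 4, 1 and 0. The called gene was Cox7a2l. At P0 it stood at 275, 218 and 279 CPM in digenic and at 345, 338 and 425 CPM in WT kidneys, and at P12 at 221, 236 and 244 CPM in digenic and at 198, 222 and 224 CPM in WT kidneys. The groups did not overlap at P0 and overlapped at P12, and the difference changed by 0.64 ± 0.181 (SE; adjusted p = 0.0239, edgeR). It was not called in 4 of the 12 fits that left out 1 library (adjusted p up to 0.0915), nor without the libraries with adrenal transcripts (adjusted p = 0.122). In Pkd1-RC/RC the change was 0.53 ± 0.181 (adjusted p = 0.341, edgeR), from 263 ± 23.7 CPM at P0 to 220.3 ± 25.8 CPM at P12.

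The mean of the 76 subunits was set against other measures of the same 36 libraries, as a description with no test. Once group means were taken out, r was 0.899 with the mean of the mitochondrial ribosome genes and 0.736 with that of cytosolic ribosome genes. It was 0.459 with citric acid cycle genes and -0.877 with the length trend. With group means left in, r was 0.769, -0.0549, 0.761 and -0.509 in the same order. How closely the subunit genes followed each other was not measured. These means share library, depth and scaling. WT at P3 shows the spread: replicate 2 had a subunit mean of -0.06 with a length correlation of -0.267, and replicates 1 and 3 had -0.45 and -0.45 with 0.125 and 0.182. The digenic libraries of P12 (subunit means -0.20, -0.26 and -0.28) lay within the length range of the other libraries of that age. Shorter and longer subunit genes had nearly the same median in digenic against WT at P12, -0.35 for the 38 below a median length of 1348.5 bases and -0.34 for the 38 above. The part of RNA quality in the differences between libraries was not tested.

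**Figure D5:**
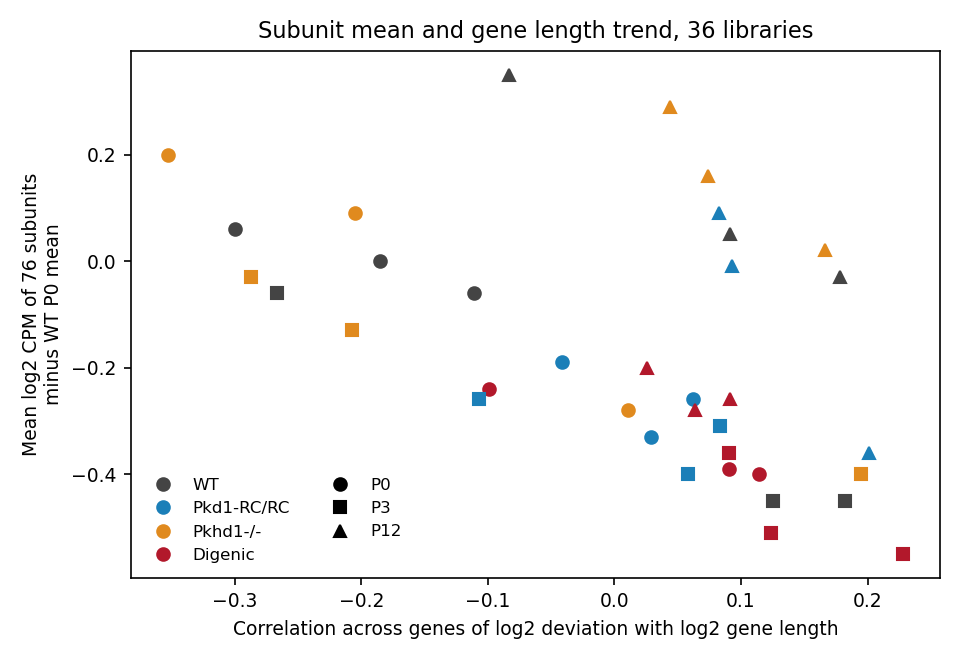
Mean log2 CPM of the 76 subunit genes minus the WT P0 mean against the correlation, across genes, of a library's log2 deviation with log2 gene length, in 36 libraries coloured by genotype and shaped by age. The 76 include Cox8b and Cox7a1, with which the complex IV mean of WT at P12 is 0.36 and without which it is -0.00. Among the P0 and P3 libraries the mean of the 76 falls as the correlation rises, and P12 libraries of WT and Pkhd1-/- lie above those of like correlation. The digenic P12 libraries have means within the range of the Pkd1-RC/RC libraries of P0 (-0.33 to -0.19), whose correlations overlap theirs. The 3 digenic libraries of P12 (-0.20, -0.26 and -0.28) lie below the other P12 libraries of like correlation.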

How the data were processed

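The 36 whole-kidney libraries were read as 150 bp pairs. Per the submitters' processing notes and design text, the authors ran the MAP-RSeq 2.1.0 pipeline (TopHat2 with Bowtie, build mm10) and featureCounts, and edgeR is named too. The deposited values used here are raw counts per gene, per the file headers. The sources used here do not state strand, filters or the treatment of reads that match several copies, so that genes with near-identical pseudogenes are uncertain. The 36 deposited normalized columns and 16 columns of group values were not used. Nothing in the labels names litters or donors, so p-values measure the spread between these libraries, and depth left counting error small for all but Cox8b and similar low genes.

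Members and lists were chosen with earlier results of these data known. Groups came from the labels. The test was edgeR's (version 4.0.16, with limma 3.58.1, under R 4.3.3; filterByExpr, TMM, robust quasi-likelihood F-test), with the 12 libraries of an age in 1 fit, or all 36 libraries for comparisons between ages, and Benjamini-Hochberg adjustment over all tested genes at 0.05. Levels are CPM with TMM factors of all 36 libraries, as mean ± SD (n = 3), and log2 levels use a prior count of 2. The length trend was removed with a spline of 5 df per library, and its correlation was taken over genes whose mean log2 CPM reached 2. Genes named were the core subunits, the isoform sets and, per comparison, the called members with the largest rise or fall in each complex and those with the smallest p (without calls, up to 3 by p). Other names were chosen after their values were seen, and 1 gene that enters the counts is not reported here by name. Positions came from GENCODE M21, which placed all 81 genes (52 with the deposited start and end). Alternatives were DESeq2 1.42.0, RLE scaling, no filter, a replicate block, sex as a covariate, leaving out 1 library and, chosen after seeing the data, leaving out the 9 libraries with adrenal transcripts. The tests were also run on simulated counts, drawn gene by gene with no length trend shared by a library. The outcome is not given here, and it does not bear on differences that move with such a trend.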

Additional observations from a re-analysis of the deposited data

Results flagged for a closer look

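The interaction of both mutations at P12 was the only one to call a gene of the 81. Ndufs1 had a digenic log2 difference from WT that was lower than the sum of the differences in the single mutants, by -0.66 ± 0.123 (SE; adjusted p = 0.0105, edgeR's quasi-likelihood test), with 3 of 3 digenic libraries below every library of the other 3 genotypes at that age. Over the other settings run at P12, its adjusted p ran up to 0.0366 with 1 library left out and was 0.0657 without the libraries with adrenal transcripts.

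The change of the digenic difference from P0 to P12 called Cox7a2l, at 0.64 ± 0.181 on the log2 scale (adjusted p = 0.0239, edgeR's quasi-likelihood test). Digenic kidneys were lower than WT at P0 in 3 of 3 libraries and overlapped WT at P12.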

How the results depend on the processing

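Of the values by setting of the genes named in each comparison, 1728 kept their side of the threshold, 155 lost it and 33 gained it, and no called value changed sign. Values that were not called changed sign for Ndufa6 in digenic against WT at P12, for Ndufs1 in WT P3 against P0 and for Cox7a2, Atp5g1 and Atp5g3 in WT P12 against P0. In digenic against WT at P12, Ndufs1, Ndufb10, Ndufb3, Uqcrc2, Cox6b2, Atp5f1 and Atp5j were called in each of the 6 fits that left out 1 library; the other called genes named there were lost in at least 1 of these fits, and Uqcrh, Atp5g3 and Atp5sl in 5.
With the replicate number as a block, 32 genes were called in digenic against WT at P12, 45 in digenic against Pkhd1-/- and 33, 51 and 11 in the 3 WT comparisons; the block moved no count by over 1.5 times. Same-numbered libraries did not deviate together as a rule (54 pairs, median r -0.0840, lowest -0.783, highest 0.660, 13 over 0.1). With so wide a range these values cannot tell whether some libraries share a litter or a preparation, and the labels do not say.
The counts that moved by more than 1.5 times were these. At P0, digenic against WT had 7 with DESeq2, 1 with sex as a covariate and 17 with all 36 libraries in 1 fit; digenic against Pkhd1-/- had 6, 1 and 19; Pkd1-RC/RC against WT had 1 in the fit of all 36. At P3, digenic against Pkhd1-/- had 8 with DESeq2.
With the length trend removed, digenic against Pkd1-RC/RC at P12 had 9 (6 with DESeq2), the interaction at P12 had 3, WT P12 against P0 had 34 and the change of the digenic difference had 2.
Without the libraries with adrenal transcripts the counts were 4 for digenic against WT and 4 against Pkhd1-/- at P12, 0 for the interaction, 15 for WT P3 against P0 and 0 for the change of the digenic difference. Fewer libraries enter those fits, and at P12 digenic replicate 1, whose column header names P3, is the lone digenic library.
With only the 9 WT libraries, 12 were called for P3 against P0 and 29 for P12 against P3.
With 1 library left out, counts ran from 7 to 40 for digenic against WT at P12, 17 to 46 against Pkhd1-/-, 1 to 9 against Pkd1-RC/RC, 1 to 2 for the interaction, 0 to 1 for Pkd1-RC/RC against WT at P12, 0 to 15 and 0 to 3 for digenic against Pkhd1-/- at P0 and P3, 0 to 2 for the change of the digenic difference, 11 to 53 for WT P3 against P0, 23 to 70 for P12 against P3 and 8 to 11 for P12 against P0. Where no cause is named, the cause was not tested.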
